A study of Rattus norvegicus with 6 samples.

Results

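Translation initiation factors (eIF) and elongation factors (eEF) are the proteins that bring ribosomes to a messenger RNA, set them at the start codon and move them along it. Genes of this family were taken as all those whose RefSeq accession on the array belongs to a rat symbol beginning with Eif or Eef and a digit, leaving out the eIF2 alpha kinases and Eif2s3y. This gave 52 genes with 119 probes, of 15284 distinct gene symbols on the array. Of these, 51 genes with 114 probes were tested, and all 51 were well above background on all 6 arrays. Eif5a2, a paralogue of Eif5a, has 4 probes, none of them well above background on an array, and was not tested.

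Liver RNA of 6 male Sprague-Dawley rats, bought at 5 weeks of age, was measured on Agilent arrays with a single colour, with 1 array for each rat. Of these rats, 3 were given bromodichloromethane (BDCM), a trihalomethane found in chlorinated drinking water, at 200 mg/kg/day, and 3 were given corn oil, the vehicle. The comparison addresses which liver transcripts differ after dosing with this chemical. The labels give the time of measurement as 28 days in one place and the dosing as 9 weeks in another, and the length of exposure was not settled here. No genetic change is given for either group, and the labels describe separate animals.

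A level below is the log2 of a probe's processed signal minus the 75th percentile of its array, so that 0 is the level of that percentile. A change is the mean level of the 3 BDCM livers minus that of the 3 corn oil livers, and a gene passed the test at an adjusted p of 0.05 in limma. The 75th percentile itself lay between 670 and 825 fluorescence units, and 66.0% ± 0.79 of probes were well above background in BDCM livers, against 62.5% ± 1.3 in corn oil livers (SD, n = 3 each). BDCM replicate 1 shared a slide with the 3 corn oil arrays, while BDCM replicates 2 and 3 lay on a second, separately scanned slide. Hepatocyte markers reached a summed signal of 3764 to 4239 times the 75th percentile in BDCM livers and 4426 to 4960 times in corn oil livers, so the defining genes of the labelled tissue were present in all animals. In bulk tissue, fewer cells of a type and less RNA per cell cannot be told apart.

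Initiation begins when eIF2, loaded with GTP and the initiator transfer RNA, joins the small ribosomal subunit together with eIF1, eIF1A and the large eIF3 complex. The eIF4 factors bind the cap of the messenger RNA, unwind its leader and bring it to that subunit, eIF2B reloads eIF2 after each round, and 4E-binding proteins withhold the cap-binding protein eIF4E. In elongation, eEF1A delivers aminoacyl transfer RNAs, the eEF1B subunits recharge eEF1A with GTP, and eEF2 moves the ribosome by a codon. In the liver, an organ that makes most plasma proteins, much of the control of this machinery is known to run through phosphorylation of eIF2 alpha, of the 4E-binding proteins and of eEF2, none of which an RNA measurement records.

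Most translation factor messenger RNAs differed little between BDCM and corn oil livers. Eif1ax, which encodes the start-site scanning factor eIF1A, rose in BDCM livers, and Eif6, which encodes a factor that keeps the large ribosomal subunit from joining too early, fell by the probe that stood for it. These were the only 2 of 51 members past the threshold (3.92%), beside 9.36% of all 28995 features tested. In the higher direction it was 1 member, where 5.96% of all features passed, and in the lower direction 1 member, where 3.41% passed. With 1 member in each direction, no difference from the shares of the array is read from these counts. The count called higher also moved with the processing, to 4 with median centring and 0 with slide as a fixed block.

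Before adjustment, 9 of the 51 members (17.6%) had a p under 0.05, 7 higher and 2 lower, beside 27.5% of all features. The changes ran between -0.67 and 0.66 on the log2 scale with a median of 0.05, beside a median of 0.0014 over all features. In size, without sign, the median change of the members was 0.12 and that of all features was 0.20. The spread between animals of a group was likewise smaller, with a median pooled SD of 0.098 for members and 0.16 for all features. Changes under 1.5-fold were found for 49 members (96.1%), beside 87.1% of all features, and for 42 members the whole 95% interval of the change lay within 1.5-fold. The 3 BDCM livers lay wholly above the corn oil livers for 13 members and wholly below for 4, together 33.3%. Of all features, 34.4% had groups that did not overlap, 18.4% with BDCM livers above and 16% with them below.

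**Figure D1:**
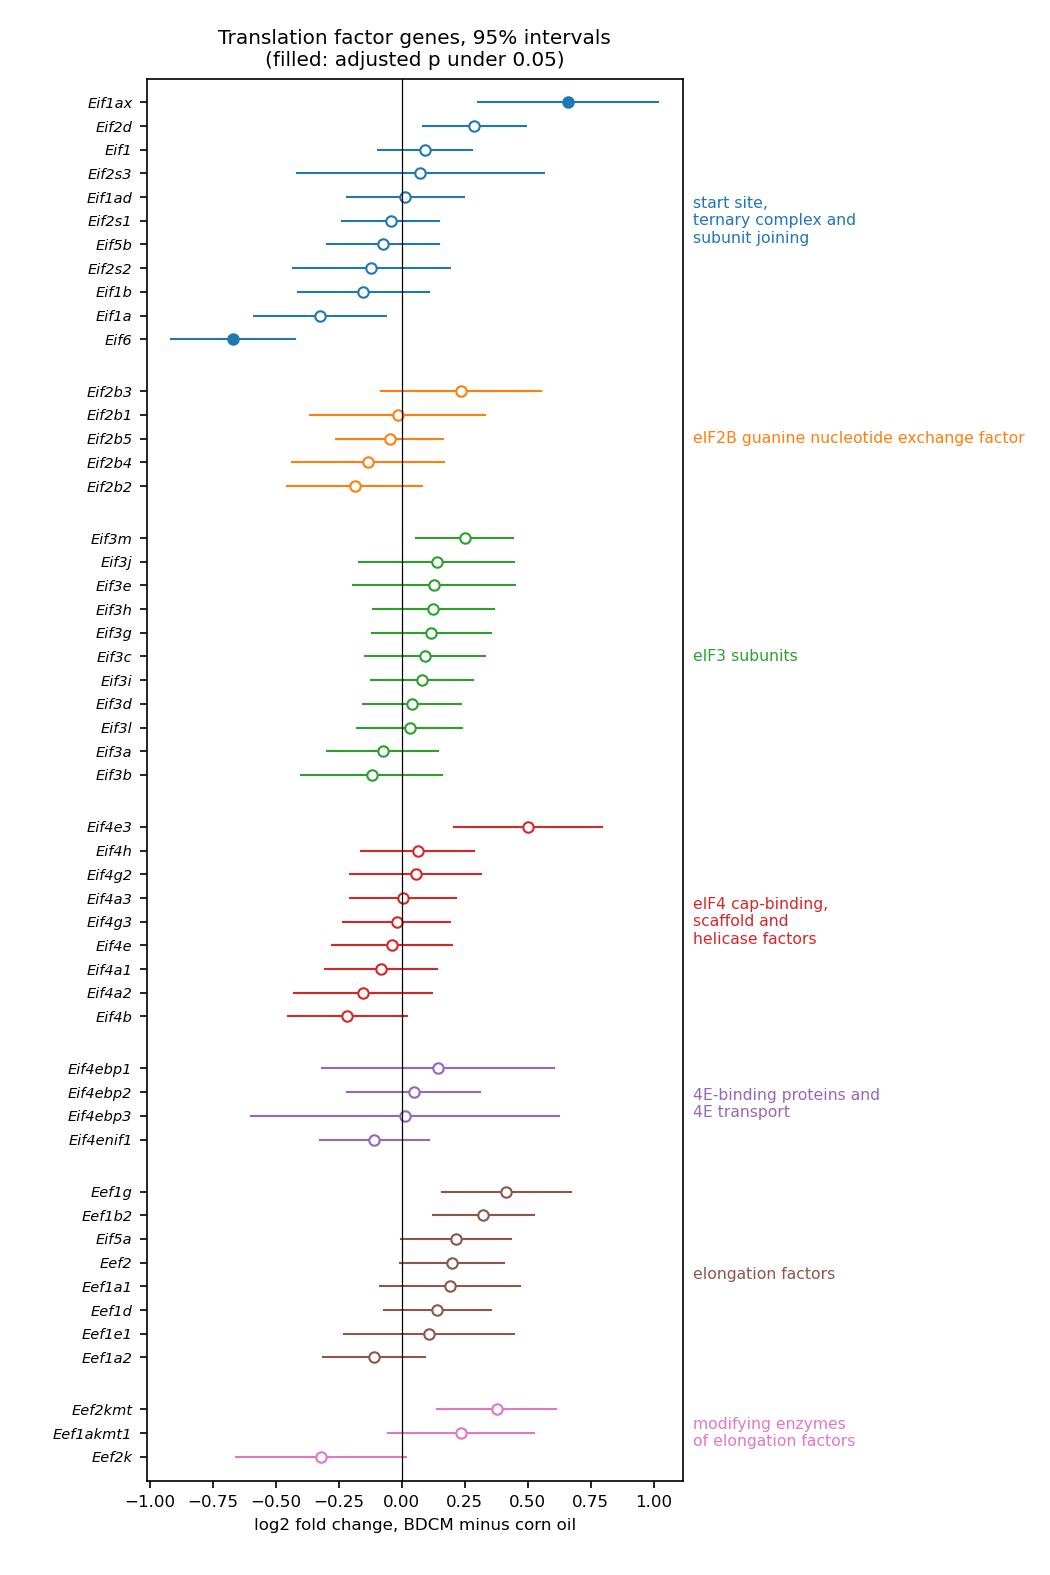
Log2 fold change of each of the 51 tested translation factor genes (BDCM minus corn oil, x axis), grouped by role, with 95% intervals as lines and filled points for genes past an adjusted p of 0.05. Eif1ax at 0.66 and Eif6 at -0.67 are filled, and 42 of the 51 intervals include 0.

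Genes were placed in role groups by symbol, so a group can hold a gene that shares a factor's name but not its role. Most of the 11 grouped here encode factors of start-site selection, of the ternary complex or, as eIF5B and eIF6, of subunit joining. Of the 11, Eif1ax rose, Eif6 fell and 9 did not pass. Eif1ax stood at 0.10, 0.57 and 0.38 in BDCM livers 1 to 3, against -0.43, -0.35 and -0.15 in corn oil livers. All 3 BDCM values were above all corn oil values, with BDCM replicate 1 the lowest of its group. The change was 0.66 (SE 0.15, 95% interval 0.30 to 1.02, limma adjusted p = 0.045), which is 1.58-fold. The other probes of Eif1ax changed by 0.60 and 0.38, and the one at 0.60 also passed when every probe was tested on its own. On the first slide alone, which holds a single BDCM array, the change was 0.41 and its adjusted p was 0.32. The call held without BDCM replicate 1 and was lost when any other animal was left out, with adjusted p-values between 0.046 and 0.13 over these fits.

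Eif6 stood at 4.57, 4.47 and 4.35 in BDCM livers, against 5.19, 5.02 and 5.19 in corn oil livers. Every BDCM liver was below every corn oil liver. The change was -0.67 (SE 0.10, 95% interval -0.92 to -0.42, limma adjusted p = 0.019). The second Eif6 probe, annotated to the same transcript, gave 3.50, 3.39 and 3.27 in BDCM livers and 3.34, 3.33 and 3.51 in corn oil livers. Those values overlap, and the change was -0.0042 with a 95% interval of -0.25 to 0.25, so the probes of this gene disagree. Averaged over both probes the change was -0.34 with an adjusted p of 0.090. The call of the brighter probe held without BDCM replicate 1 and was lost when any other animal was left out, with adjusted p-values between 0.038 and 0.077. It was also lost with slide as a fixed block (adjusted p = 0.11) and on the first slide alone (adjusted p = 0.19), where the change was -0.56.

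**Figure D2:**
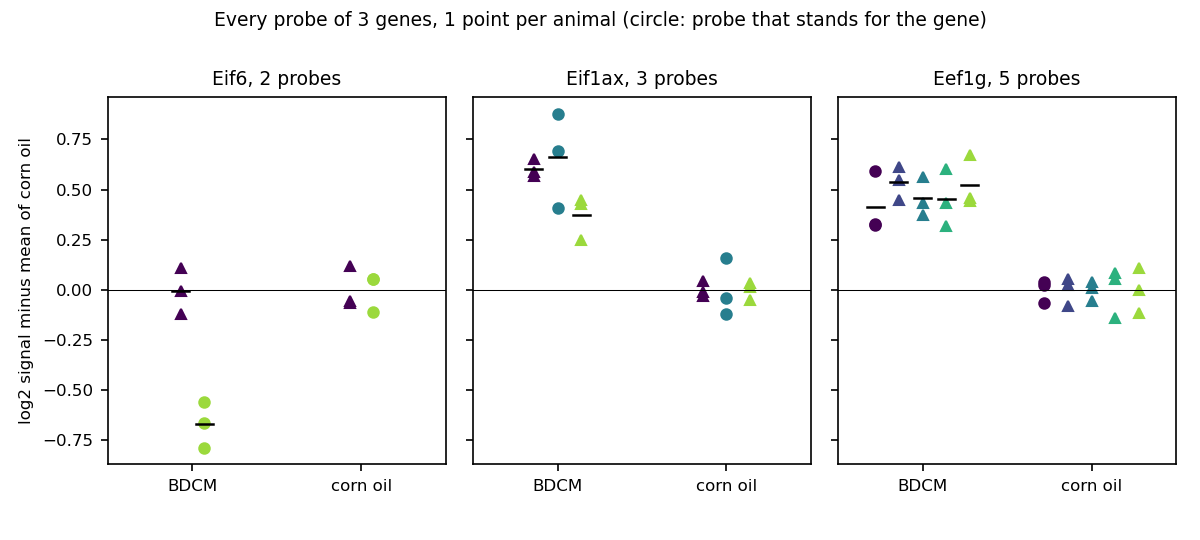
Log2 signal of every probe of Eif6, Eif1ax and Eef1g in each animal, relative to that probe's mean in corn oil livers (y axis), with BDCM left and corn oil right, 1 colour per probe, circles for the probe that stood for the gene and bars at BDCM means. The 3 Eif1ax and 5 Eef1g probes all lie higher in BDCM livers, while only 1 of the 2 Eif6 probes lies lower.

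The remaining genes of this group ran both ways. Eif2d, named after its values were seen, encodes a factor that can deliver the initiator transfer RNA without eIF2. Its levels of 3.45, 3.44 and 3.31 in BDCM livers lay above 3.12, 3.08 and 3.14 in corn oil livers, a change of 0.29 (adjusted p = 0.088), and its 3 probes gave 0.24 to 0.29. Eif1a, also named after its values were seen, is a further gene of the eIF1A family. Its levels of 1.55, 1.84 and 1.71 in BDCM livers lay below 2.05, 2.10 and 1.92 in corn oil livers, a change of -0.32 (adjusted p = 0.12), which turned to 0.16 when arrays were scaled by the spiked-in control transcripts. The eIF1A family therefore held the highest change of all members in Eif1ax and a lower one, short of the threshold, in Eif1a. For Eif2s1, the alpha subunit of eIF2 and the target of the stress kinases, the levels were 3.83, 3.83 and 3.75 in BDCM livers and 3.84, 3.89 and 3.82 in corn oil livers. The change of -0.04 had a 95% interval of -0.24 to 0.15, and Eif2s1 was above 0 after median centring and spike-in scaling.

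The genes of eIF2B, the factor that reloads eIF2 with GTP, showed no call among 5 measured subunits by limma, and none had an unadjusted p under 0.05. Their changes ran between -0.19 and 0.24 with a median of -0.05, and 4 of the 5 were below 0. Eif2b3, the gamma subunit, had the smallest p of them. Its levels were 0.23, 0.29 and 0.15 in BDCM livers and -0.27, 0.07 and 0.16 in corn oil livers, which overlap, and the change was 0.24 (95% interval -0.08 to 0.56, adjusted p = 0.31).

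None of the 11 measured genes of eIF3, the scaffold of the initiation complex, passed, and 1 had an unadjusted p under 0.05. Of them, 9 changes were above 0 and 2 below, within -0.12 to 0.25, and the median was 0.09. Eif3m, the gene with that p, stood at 3.89, 3.85 and 3.85 in BDCM livers, against 3.64, 3.55 and 3.64 in corn oil livers. The groups did not overlap and the animals of each lay close together, but the change of 0.25 (SE 0.08) had an adjusted p of 0.10. On the first slide alone the change of Eif3m was 0.28, while the median of the eIF3 genes was 0.03.

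Among the 9 genes named as eIF4 factors, a family that binds the cap, bridges it to the ribosome and unwinds the leader, none passed. Of these 9, 1 had an unadjusted p under 0.05. That gene was Eif4e3, a cap-binding protein of the eIF4E family. Its levels were 0.81, 1.01 and 0.81 in BDCM livers, against 0.57, 0.33 and 0.23 in corn oil livers. The groups did not overlap, and the change of 0.50 (95% interval 0.21 to 0.80) had an adjusted p of 0.055. Its other probes gave 0.39 and 0.08, so the size differed between probes.

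Other eIF4 genes had smaller changes than Eif4e3. Eif4e, the general cap-binding protein, stood at 2.65, 2.70 and 2.61 in BDCM livers and 2.54, 2.79 and 2.74 in corn oil livers, a change of -0.04 (95% interval -0.28 to 0.20) whose sign turned under several settings. Eif4a1, the helicase, changed by -0.08 (95% interval -0.30 to 0.14), and its 7 probes gave -0.18 to 0.05. Eif4b, a helicase cofactor named after its values were seen, changed by -0.22 (adjusted p = 0.22) by its brightest probe, while its 6 probes ran between -0.22 and 0.16. The intervals of Eif4e and Eif4a1 lie within 1.5-fold in both directions.

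The 4E-binding proteins and the eIF4E transporter showed no call by limma among 4 genes, and none had an unadjusted p under 0.05. Eif4ebp1, the main 4E-binding protein of mTORC1 signalling, had levels of 4.83, 5.11 and 5.10 in BDCM livers and 4.59, 4.78 and 5.25 in corn oil livers. These overlap, with corn oil replicate 3 the highest of all, and the change of 0.14 had a wide 95% interval of -0.32 to 0.61. Eif4enif1, the transporter, changed by -0.11 (95% interval -0.33 to 0.11).

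**Figure D3:**
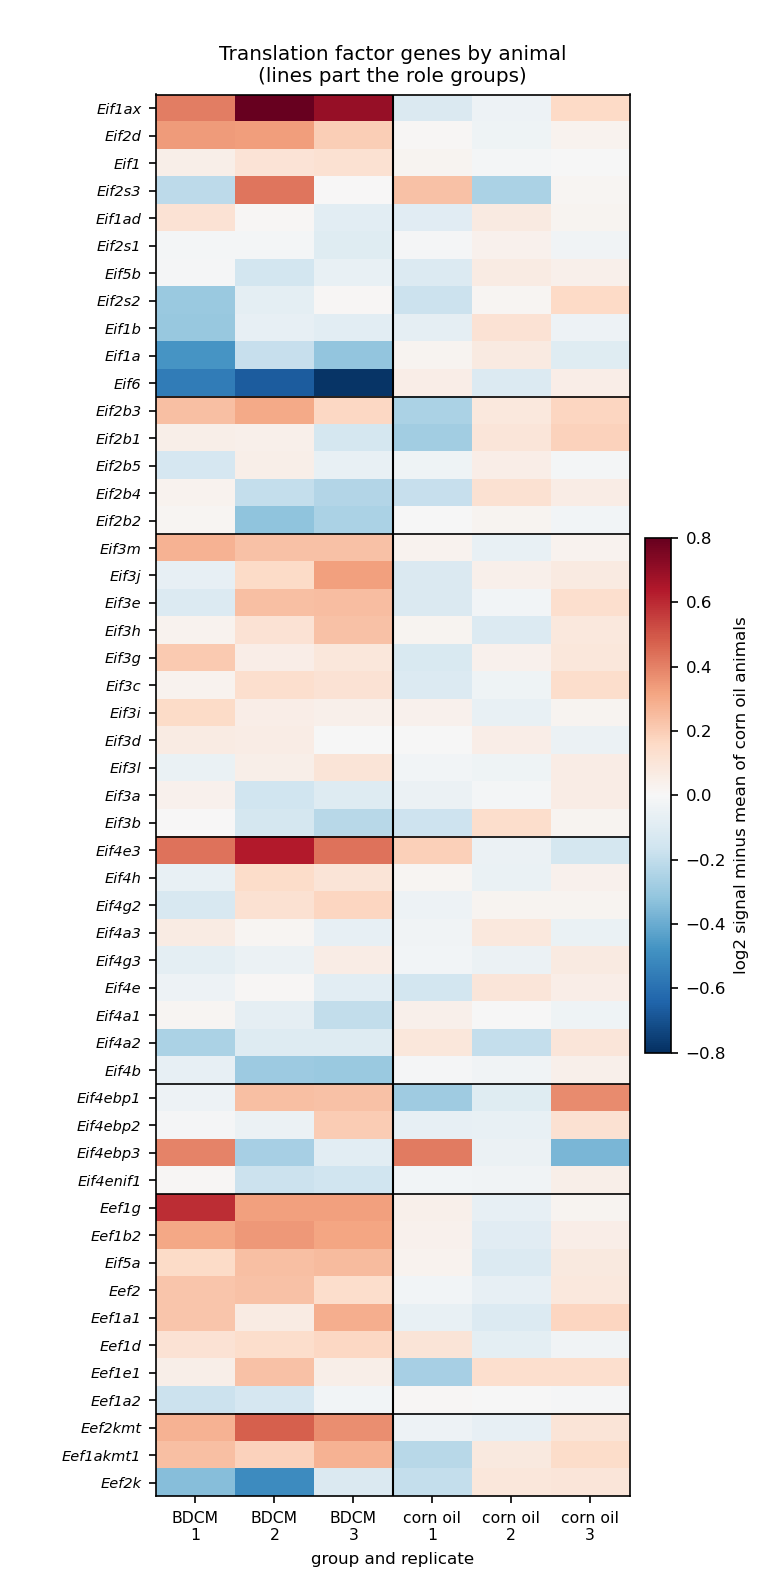
Log2 signal of each tested translation factor gene (rows, by role) in each animal (columns, BDCM left of corn oil), relative to the gene's mean in corn oil livers, red above it and blue below it. Eif1ax, Eif4e3 and the upper elongation factor rows are red in all 3 BDCM livers, Eif6 is blue in all 3, and most other rows are pale.

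Of 8 measured elongation factor genes, none passed the test, although 7 had changes above 0, the median was 0.20, and for 5 of them every BDCM liver was above every corn oil liver, an order that 18.4% of all features had. For the eighth, Eef1a2, every BDCM liver was below every corn oil liver by its tested probe, as for 16% of all features. By limma 0 passed, and 2 had an unadjusted p under 0.05. These were Eef1g and Eef1b2, which encode the gamma and beta subunits of eEF1B, the exchange factor of eEF1A. The median was 0.19 on the first slide alone and 0.68 under spike-in scaling.

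Eef1g stood at 6.42, 6.15 and 6.15 in BDCM livers, against 5.86, 5.76 and 5.85 in corn oil livers. All BDCM values lay above all corn oil values, with BDCM replicate 1 the highest. The change was 0.42 (SE 0.11, adjusted p = 0.063), or 1.33-fold. Eef1g has 5 probes, which gave 0.42 to 0.54, and 3 of these passed when each probe was tested on its own, while the brightest, which stood for the gene, did not. Averaged over its probes the change of Eef1g was 0.48 with an adjusted p of 0.038, and it also passed with median centring. Over single probes, of which 8.52% passed in either direction, 5 of 114 member probes were higher (4.39%; 5.43% of all probes), 3 of Eef1g and 2 of Eif1ax, and 1 was lower (0.877%; 3.09% of all probes), of Eif6.

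Eef1b2, named after its values were seen, stood at 6.88, 6.92 and 6.89 in BDCM livers, against 6.61, 6.49 and 6.63 in corn oil livers. The groups were well apart, with a change of 0.32 (SE 0.08, adjusted p = 0.064) and 0.34 by its second probe. Eef1d, the delta subunit of eEF1B, also named after its values were seen, changed by 0.14 (adjusted p = 0.35). Eef2, the translocation factor, had 6.67, 6.69 and 6.59 in BDCM livers, against 6.43, 6.39 and 6.53 in corn oil livers, which do not overlap. Its change of 0.20 had a 95% interval of -0.0071 to 0.41 and an adjusted p of 0.19.

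Eef1a1, the general form of eEF1A, stood at 7.76, 7.60 and 7.83 in BDCM livers and 7.48, 7.43 and 7.71 in corn oil livers. The groups overlap, and the change of 0.19 (95% interval -0.09 to 0.47) had an adjusted p of 0.34. Eef1a2, the form known from muscle and neurons, changed by -0.11 (95% interval -0.31 to 0.09), with a sign that turned under spike-in scaling. Its second probe was well above background on 2 BDCM and 0 corn oil arrays and was not tested. The mean level of that probe was -4.82 in BDCM livers and -5.80 in corn oil livers, far dimmer than the tested probe. Its values overlap between the groups, and no direction is read from them. Eif5a, named as an initiation factor but known to help ribosomes through difficult stretches during elongation, stood at 5.61, 5.70 and 5.71 in BDCM livers, against 5.49, 5.35 and 5.53 in corn oil livers. The groups of Eif5a do not overlap, and the change was 0.22 (adjusted p = 0.19). Eef1a1 and other abundant translation genes are known to have many processed copies in mammalian genomes, and hybridisation of such copies to these probes was not tested.

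The 3 measured enzymes that modify elongation factors gave no call by limma, and 1 had an unadjusted p under 0.05. Eef2kmt, which methylates eEF2, stood at -0.88, -0.68 and -0.79 in BDCM livers, against -1.20, -1.23 and -1.06 in corn oil livers. The groups did not overlap, and the change was 0.38 (SE 0.10, adjusted p = 0.065). Eef2k, the kinase that inhibits eEF2, was named after its values were seen. It had 0.59, 0.42 and 0.81 in BDCM livers and 0.74, 1.02 and 1.03 in corn oil livers, which overlap by BDCM replicate 3, and a change of -0.32 (adjusted p = 0.20).

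Several elongation factor messenger RNAs belong to the class known to start with a run of pyrimidines, through which mTORC1 controls their translation. The annotated starts of 46 of the 52 members were found in RefSeq (build GRCr8), as 48 starts. A run was a C followed by at least 4 further C or T bases, beginning within 5 bases on either side of the start, on the transcript strand alone. It was found at 11 of 48 member starts (22.9%), at 17% of all 33469 starts in the table and at 63.5% of 63 starts of ribosomal protein genes. The sequences below show 30 bases, 10 of them before the start, and capitals mark the run. They are those of only some of the members whose levels are described here, with and without a run. The match is a description of the annotated start and not a mapped start in these livers.
Eef1b2 (chr9:72074081-72074110, plus strand): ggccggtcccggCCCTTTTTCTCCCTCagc
Eif3m (chr3:111897174-111897203, minus strand): caccgtgtggtaccgCTCCTTTTCCggtcg
Eef1a1 (chr8:88225050-88225079, minus strand): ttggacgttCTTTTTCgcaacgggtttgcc
Eef1g (chr1:215289805-215289834, plus strand): ctgcggaatcaccatggcggctggggtaag
Eif1ax (chrX:39322004-39322033, minus strand): ccgggggaagcaccgcccgctgccgcgacg
Eif6 (chr3:164791391-164791420, minus strand): gtgtagagattggagtcgtttggtgagctg

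Eef1b2 and Eif3m, with long runs, and Eef1a1, with a shorter one, all had changes above 0. Among members not shown, Eef2, Eif5a, Eif2d and Eef2kmt had changes above 0 without a run. Eif1a, Eef2k, Eif4e and Eif2s1 had changes below 0 without a run. Eef1g, with the largest change of the elongation factors, had no run in this window of its annotated start. In the sequence shown, that start lies just before an ATG, so a run at a start further upstream would be missed. Eef1g is counted below as a member without a run. Of the members with a run, 10 were tested, 8 had changes above 0 and the median was 0.10, while of the 35 tested members with a matched start and no run, 18 were above 0 and the median was 0.0050. On the first slide alone these medians were 0.05 and 0.01.

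**Figure D4:**
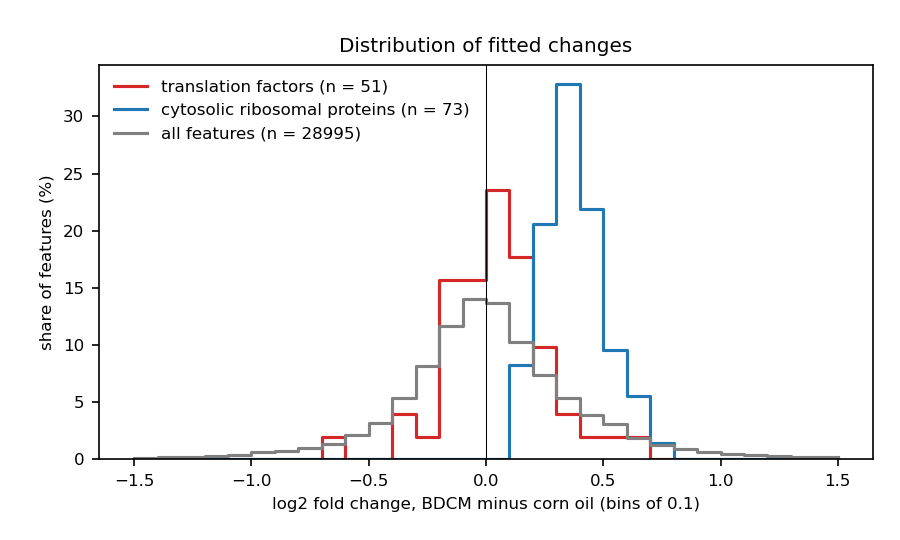
Share of features (y axis, %) by log2 fold change (x axis, BDCM minus corn oil, bins of 0.1) for 51 translation factors, 73 cytosolic ribosomal protein genes and all 28995 features. The translation factors centre near 0.05, while the ribosomal protein genes lie wholly above 0 with a median of 0.36.

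The translation factors can be set beside other genes of the same machinery. All 73 measured genes of cytosolic ribosomal proteins, the body of the ribosome, had changes above 0, with a median of 0.36. Of them, 24 passed the threshold in the higher direction and 0 in the lower, beside 5.96% and 3.41% of all features. Their median was 0.41 on the first slide alone and 0.84 under spike-in scaling. Whether these 24 calls held with slide as a block is not given here. Of 10 abundant genes with a pyrimidine start that encode neither factors nor ribosomal proteins, 9 were above 0, 1 rose and 0 fell. The one that rose was Rack1, a ribosome-bound scaffold protein, with a change of 0.56 (adjusted p = 0.026). Of 5 poly(A)-binding proteins and their partners, 1 rose. That was Pabpc4, which had 4.04, 4.07 and 3.91 in BDCM livers, against 3.20, 3.08 and 3.35 in corn oil livers. The groups were far apart, with a change of 0.80 (SE 0.11, adjusted p = 0.015). None of the 9 calls named from lists outside the family, Pabpc4 and Rack1 among them, held with slide as a fixed block (adjusted p between 0.080 and 0.14) or on the first slide alone.

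Genes that feed or regulate the factors gave few calls. Of 21 cytosolic aminoacyl-tRNA synthetases, which charge transfer RNAs, 0 rose and 1 fell, Aars1, the alanyl enzyme, by 0.49 (adjusted p = 0.044), a change of -0.0033 under spike-in scaling. Of 11 targets of the integrated stress response, the program that follows phosphorylation of eIF2 alpha, 0 rose and 1 fell, Ddit4, an inhibitor of mTORC1, with a change of -0.85 (adjusted p = 0.025). The median of these targets was -0.32, and 0.16 under spike-in scaling. At an unadjusted p under 0.05, 3 of these targets were lower and 1 was higher, Atf3, by 1.39 (adjusted p = 0.13). By limma 0 genes passed among 9 eIF2 alpha kinases and phosphatase regulators, 12 mTORC1 regulators, 10 termination and recycling factors, 9 mitochondrial translation factors and 8 genes of hypusine and diphthamide synthesis. At an unadjusted p under 0.05 these lists held 2, 1, 1, 3 and 2 genes in that order.

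The genes with the smallest p in those lists fell short of the threshold. Eif2ak4, the amino acid sensing kinase of eIF2 alpha, changed by 0.41 (adjusted p = 0.073), and Mknk2, a kinase of eIF4E, by 0.36 (adjusted p = 0.11). Etf1, the release factor that reads stop codons, changed by -0.22 (adjusted p = 0.14), and Tufm, the mitochondrial elongation factor Tu, by 0.31 (adjusted p = 0.10). Dhps, which makes the hypusine of eIF5A, changed by -0.31 (adjusted p = 0.091). The signs of Etf1 and Dhps turned under spike-in scaling.

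Markers of liver cell types also differed between the groups. Of 10 hepatocyte markers 0 rose and 2 fell, Cps1 by 0.62 and Serpina1 by 0.50. Under spike-in scaling these changes were -0.13 and -0.018, and the median of the 10 markers went from -0.25 to 0.23. Of the 8 lymphocyte and neutrophil markers measured in both groups 0 passed by limma, and 5 had an unadjusted p under 0.05. Cd3e was well above background on the 3 BDCM arrays alone, through which it entered the test. It is 1 of the 9 calls from lists outside the family, but its p-value rests on corn oil values below that level and is not used here. With those values raised to the lowest signal well above background on each corn oil array, the mean of Cd3e was 1.33-fold higher in BDCM livers. The groups then overlap, at -4.95 for corn oil array 1 and -5.01 for BDCM liver 2. A probe that failed can lie above that lowest signal, so the ratio is not a lower limit. The summed signal of that list was 5.36 to 6.82 times the 75th percentile in BDCM livers and 4.17 to 4.89 times in corn oil livers. Bile duct markers summed to 2.46 to 3.62 in BDCM livers and 1.64 to 1.81 in corn oil livers, with 1 of 4 past the threshold, Epcam, higher by 1.12. Without Epcam the sums overlap, at 0.52 to 1.14 in BDCM livers and 0.51 to 0.94 in corn oil livers. Of 4 endothelial markers, Lyve1 fell by 0.56, a change of -0.07 under spike-in scaling. The endothelial list summed to 43.7 to 46.0 in BDCM livers and 52.2 to 53.2 in corn oil livers. None of 9 Kupffer cell and 8 stellate cell markers passed by limma, and 2 and 1 of them had an unadjusted p under 0.05, the smallest being those of Cd68 and Reln. The part of these markers in the changes of Eif1ax, Eif6 and the elongation factors was not tested.

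All directions given here are relative to an array's own 75th percentile. Scaled by the spiked-in transcripts, the median of all features moved to 0.48, and 29 members were higher and 0 lower, beside 44.6% and 1.1% of all features. Eif6 then changed by -0.19 (adjusted p = 0.31) and Eif1ax by 1.14. With quantile normalization 26 of 51 members lay above the median of all features.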

How the data were processed

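Total RNA of each liver was labelled with Cy3 for arrays of a single colour, per the labels' protocols. Per the submitters' processing notes, the software was Agilent Feature Extraction 10.7. The deposited scanner files hold linear intensity values that are background-subtracted, per the file headers, with no scaling across arrays. The deposited value table holds a linear ratio, from the values each array's processed signal over its 75th percentile (within 1% for at least 96.4% of probes), and was used as an alternative. The authors' statistical method is not given in the sources used here.

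Probes were named by unversioned accession through RefSeq (GRCr8): 27460 of 61657 matched 1 symbol. Log2 intensities minus the 75th percentile over non-control probes entered limma 3.58.1 under R 4.3.3 (lmFit, eBayes, two-sided, Benjamini-Hochberg over 28995 features). A probe was kept when well above background on all 3 arrays of a group, 27 flagged probes were left out, and the brightest probe stood for a gene. The model was tested on simulated data. Named were members past the threshold, the smallest p of each role group without a call, 8 members picked for their roles, and up to 3 genes past the threshold or the smallest p of each other list; the others are marked. The members and lists were chosen with earlier results of these data known.

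Alternatives were normexp on the median signal and background (the files give no mean signal; offset 50), quantile normalization, median centring, spike-in scaling (8 control probes), filters on dim probes, the mean over probes, every probe, trend and robust eBayes, the value table, slide and replicate blocks, slide 1 alone, and leaving out each animal. The number of arrays limits the precision.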

Additional observations from a re-analysis of the deposited data

How the results depend on the processing

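The counts of called members depended on the processing. Against 1 higher and 1 lower, the members called higher were 3 with normexp, 4 with median centring, 29 with spike-in scaling, 2 with the filter on all 6 arrays, 2 with the mean over probes and 5 with trend and robust eBayes, or 5 probes when each was tested alone. They were 0 with no filter, with slide as a fixed or random block, on slide 1 alone and with the replicate block, and 0 to 1 without single animals. The members called lower were 0 with spike-in scaling, no filter, the mean over probes, slide as a fixed block, slide 1 alone and the replicate block, and 0 to 1 without single animals. Over all features the 2715 calls became 3251 with normexp, 2969 with median centring, 2801 with the filter on all 6 arrays, 2761 with the mean over probes, 3433 with trend and robust eBayes, 13249 with spike-in scaling, 609 with no filter, 350 with slide as a fixed block, 120 on slide 1 alone, 353 with the replicate block, and 335 to 1232 without single animals. The members' median was 0.012 with quantile normalization, 0.10 with median centring, 0.53 with spike-in scaling, and 0.02 to 0.07 without single animals.

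Some signs turned. Under spike-in scaling Eif4enif1 became 0.37, Eef1a2 0.37, Eif2s1 0.44, Eif4a1 0.40, Eif4e 0.44, Eif1a 0.16, Eef2k 0.16, Eif4b 0.27, Dhps 0.17, Etf1 0.26 and Reln 0.16. With slide as a block, and equally on slide 1 alone, Eif4enif1 became 0.0083, Eif4a1 0.018 and Eif4ebp1 -0.041. Median centring gave Eif2s1 0.013 and Eif4e 0.018, normexp gave Eif4a1 0.0052 and Eif4e 0.018, and the mean over probes gave Eif4e 0.056 and Eif4b 0.016. Without single animals Eif4e lay between -0.11 and 0.011, and it was above 0 without corn oil replicate 2. Under spike-in scaling the median of all features also moved up, to 0.48. The cause of these turns and of that shift was not tested.

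Replicate numbers were shared by the groups but named no pairs. Deviations from the group mean had correlations of 0.092, 0.019 and 0.12 between same-numbered animals. Between differently numbered animals these lay between -0.098 and 0.0023. Taking deviations from each group's own mean ties these values to each other, so they do not settle a pairing. The replicate block in limma, with fewer residual degrees of freedom, gave Eif6 an adjusted p of 0.066 and Eif1ax 0.076. It also ended all 9 calls named from the other lists (adjusted p between 0.052 and 0.087). Slide and group are partly confounded, and fits with slide rest on 1 BDCM array.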
